A study of Saccharomyces cerevisiae with 6 samples.

Results

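The genes of the proteasome and RPN4, the gene of the transcription factor that drives them, were examined in budding yeast with altered Mot1 or TATA-binding protein (TBP). Members were taken by gene name from the array annotation: every gene probe named RPN, RPT, PRE or PUP with a number, together with SCL1. This gave 33 of the 6256 gene probes on the array, of which 14 encode subunits of the core particle, 18 encode subunits of the regulatory particle and 1 is RPN4. All 33 passed the filter on dim probes. The assembly chaperone gene RPN14 was not among them, because the array lists it only by its systematic name YGL004C.

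Mot1 is an ATPase that takes TBP off promoter DNA, and the series asked which transcripts altered in a mot1 mutant return to the wild-type level in strains that live on a TBP variant, and which are altered anew. Per the labels, all 4 strains were derived from AY138 and had been through FOA (fluoroorotic acid), an agent that kills cells still carrying a URA3 plasmid. The strain with wild-type MOT1 (WT) held pAV20, the mot1-14 strain held pMOT244, and the bypass strains held pTBP-Y185C or pTBP-F207L. The genotype of AY138 itself, including its chromosomal MOT1 and TBP alleles, is not given in the sources used here, nor is whether a strain is 1 clone. All cultures grew at 30 °C in YPD, a rich medium, and were harvested near an optical density of 1.0. RNA of each mutant was hybridised with RNA of WT on 2 two-colour arrays, the mutant in Cy5 on array 1 and in Cy3 on array 2, which makes 6 arrays in all. Values are log2 ratios of mutant over WT, and a gene is said to have risen or fallen where its adjusted p was under 0.05 in a limma model of all 6 arrays (Benjamini-Hochberg over 6234 genes).

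The proteasome degrades proteins that carry ubiquitin chains. Its core particle is a barrel of alpha and beta rings, with the cutting sites inside the beta rings. The regulatory particle caps the barrel: its base holds a ring of ATPases that unfold the substrate, and its lid removes the ubiquitin. In yeast, Rpn4 binds a short element in the promoters of most of these genes and activates them, and Rpn4 is itself a substrate of the proteasome, so that its amount rises when degradation is slow. RPN4 transcription is known to respond to Hsf1, Yap1, Pdr1 and Pdr3, the activators of the heat shock, oxidative stress and drug resistance programmes.

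The 6 arrays lay on 3 slides, with both arrays of a mutant on 1 slide, so slide and mutant cannot be told apart. Whether the 2 arrays of a mutant stem from separate cultures is not stated, so the p-values reflect only the spread between arrays, and this may be technical. WT counted as 1 control sample shared by all 3 mutants, and its own spread is in no test. Array pairs correlated across genes at r = 0.93 to 0.96, and the median signal of an array was 6.74 to 22.7 times the local background. The members were bright: all 336 of their spots were well above background in both channels, none was saturated, and the lowest signal of any member was 11.5 times background. Where a member had 2 spots on an array, the spots differed by a median of 0.04 (137 pairs of spots). Of the genes that define the strains, MOT1 was at log2 ratios of 2.24 and 2.11 on the mot1-14 arrays, -3.73 and -3.28 on the TBP-Y185C arrays and -1.74 and -3.41 on the TBP-F207L arrays. SPT15, which encodes TBP, was at -0.49 and -0.23, at 4.28 and 3.87, and at 3.65 and 3.62.

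The proteasome genes did not move as a block in mot1-14, whereas in this model most rose in the bypass strains. For TBP-Y185C this majority depended on the setting. In mot1-14, 10 of 33 members rose (30.3%) and 15 fell (45.5%), beside 37.2% and 34.9% of all genes tested. In TBP-Y185C, 20 rose (60.6%) and 6 fell (18.2%), beside 41.0% and 38.8% of all genes. In TBP-F207L, 24 rose (72.7%) and 4 fell (12.1%), beside 40.2% and 38.8%. In this model the share that rose was thus above the share of all genes in both bypass strains and below it in mot1-14. The median over the 32 subunit genes was 0.31 for TBP-F207L, 0.13 for TBP-Y185C and -0.02 for mot1-14, while the median of all genes was -0.0003, -0.0059 and -0.001.

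The subunit genes spread less than all genes. The standard deviation over the 32 subunit genes was 0.34 for TBP-F207L, 0.38 for TBP-Y185C and 0.24 for mot1-14, against 0.55, 0.59 and 0.48 over all genes. The array pairs gave the same sign for most members: 13 members were above 0 on both mot1-14 arrays, 15 were below on both and 5 had opposite signs. In TBP-Y185C these numbers were 21, 5 and 7, and in TBP-F207L they were 27, 3 and 3. The arrays of a pair differed by a median of 0.12, 0.07 and 0.09 per member, and by at most 0.40, which was RPN2 in mot1-14. With median centring of each array in place of loess, 4 members rose and 14 fell in mot1-14, 20 rose and 2 fell in TBP-Y185C, and 22 rose and 1 fell in TBP-F207L. Without a dye term in the model, 7 rose and 10 fell in mot1-14, 13 rose and 3 fell in TBP-Y185C and 20 rose and 2 fell in TBP-F207L. From the scanner's own log ratios, 15 of 33 members rose in TBP-Y185C and 6 fell. The authors' series table gave the same counts. Both sources gave 21 and 4 for TBP-F207L, and 9 and 15 for mot1-14. The members that rose in TBP-Y185C were thus a minority with these sources and without a dye term. They were a minority also when the first TBP-Y185C array was left out, a fit that keeps 1 array of that mutant. The shares of all genes were not counted under these settings.

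**Figure D1:**
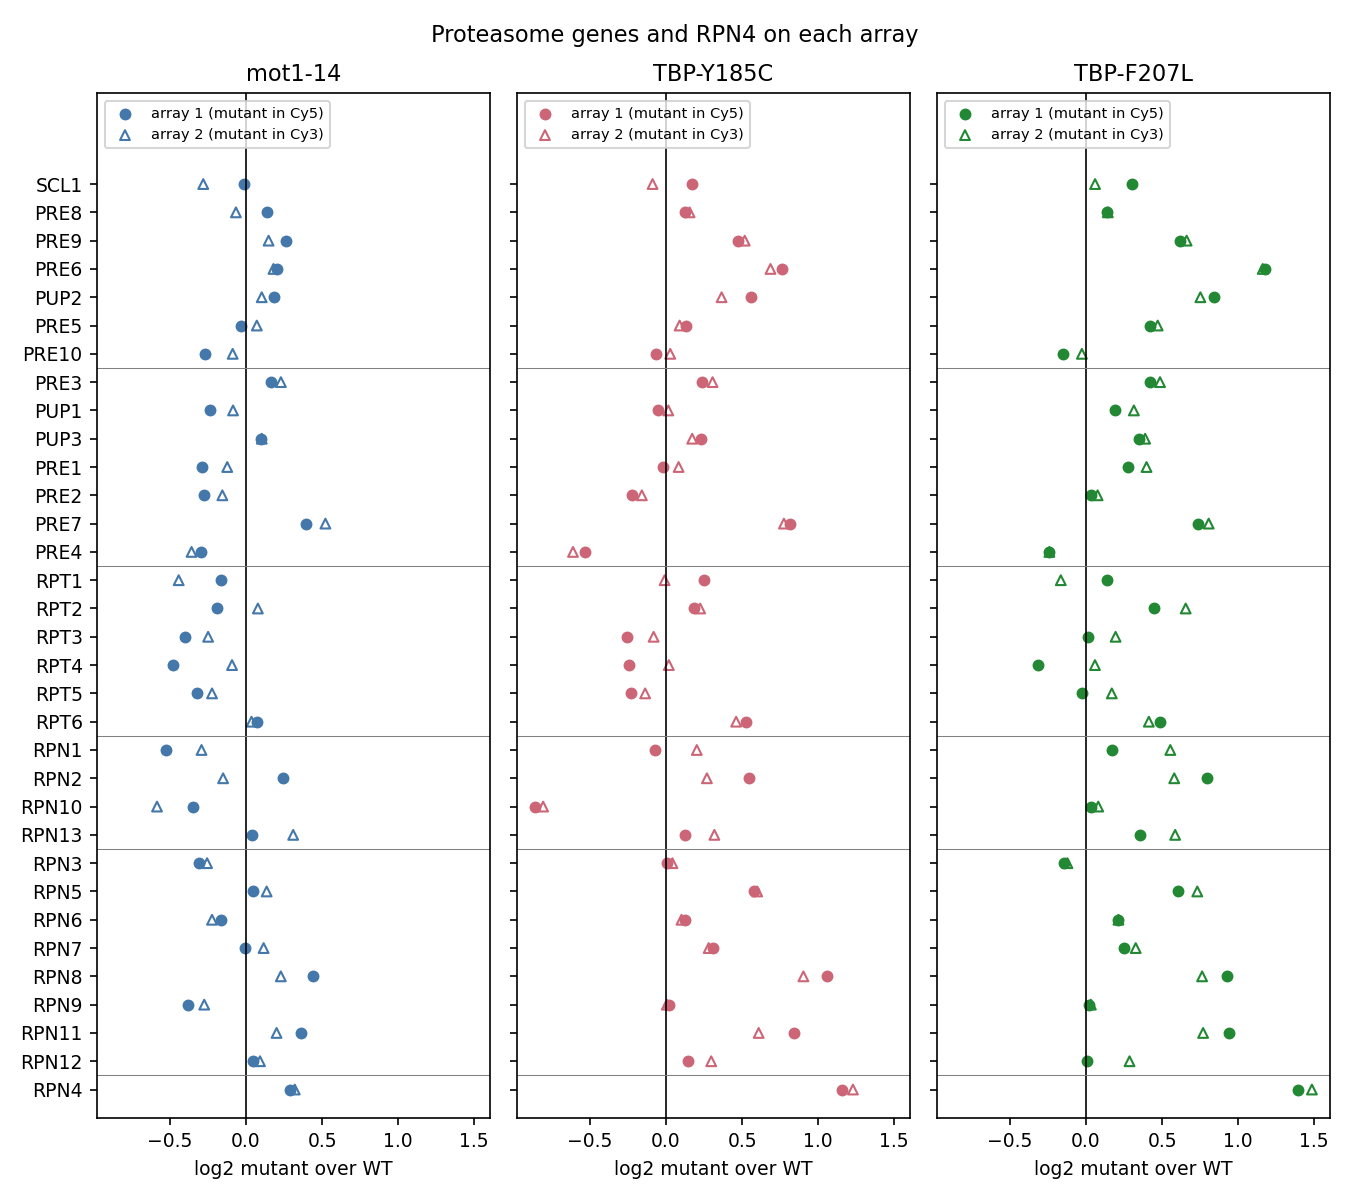
Log2 ratio of mutant over WT of each proteasome gene and RPN4 on each array, with circles for array 1 (mutant in Cy5) and triangles for array 2 (mutant in Cy3); grey lines separate alpha ring, beta ring, base ATPases, other base subunits, lid and RPN4. In mot1-14 the members lie on both sides of 0, and in TBP-F207L 27 of 33 lie above 0 on both arrays.

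RPN4 rose in all 3 mutants, and by more in the bypass strains than in mot1-14. Its log2 ratio was 0.29 and 0.32 on the mot1-14 arrays, 1.16 and 1.23 on the TBP-Y185C arrays and 1.40 and 1.48 on the TBP-F207L arrays. The pairs did not overlap, and the arrays of 1 mutant lay closer to each other than to those of any other mutant. In TBP-F207L the fitted rise was 2.71-fold, a log2 ratio of 1.44 (SE 0.03, limma adjusted p = 1.64e-07). In TBP-Y185C it was 2.29-fold, a log2 ratio of 1.19 (SE 0.03, limma adjusted p = 2.14e-07), and in mot1-14 it was 1.23-fold, a log2 ratio of 0.30 (SE 0.03, limma adjusted p = 0.000131). Of the 6234 genes tested, 115 had a higher log2 ratio than RPN4 in TBP-F207L, 275 in TBP-Y185C and 1367 in mot1-14. RPN4 stood above every subunit gene in both bypass strains. In mot1-14 it did not: the subunit genes PRE7, at 0.46, and RPN8, at 0.34, had higher log2 ratios.

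Between mutants, RPN4 was higher in TBP-Y185C than in mot1-14 by 0.89 (SE 0.05, limma adjusted p = 4.62e-05) and higher in TBP-F207L than in mot1-14 by 1.14 (SE 0.05, adjusted p = 1.06e-05). TBP-F207L exceeded TBP-Y185C by 0.25 (SE 0.05, adjusted p = 0.00787), and both TBP-F207L arrays lay above both TBP-Y185C arrays. This last difference no longer passed with median centring, where it was 0.19, without a dye term, or without either TBP-Y185C array, where it was 0.24 and 0.25. The rises of RPN4 against WT and its differences from mot1-14 passed in all 14 alternative settings.

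The alpha ring, which gates entry to the barrel, held the subunit gene with the highest log2 ratio of the complex in TBP-F207L, PRE6. Of its 7 genes, 3 rose and 2 fell in mot1-14, 5 rose and none fell in TBP-Y185C, and 6 rose and 1 fell in TBP-F207L. The median of the ring was 0.04, 0.14 and 0.44. Counts of this and the other subcomplexes stand beside 37.2%, 41.0% and 40.2% of all genes that rose. The shares of all genes that fell were 34.9%, 38.8% and 38.8%. With so few genes per group, no such count is read as a result about its group. PRE6 was at 0.20 and 0.18 on the mot1-14 arrays, 0.76 and 0.69 on the TBP-Y185C arrays and 1.18 and 1.16 on the TBP-F207L arrays. The 3 pairs were well apart and followed the order seen for RPN4. PRE6 rose 2.25-fold in TBP-F207L (log2 1.17, SE 0.03, limma adjusted p = 2.77e-07) and 1.65-fold in TBP-Y185C (log2 0.73, adjusted p = 1.46e-06), and by 0.19 in mot1-14 (adjusted p = 0.00156).

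PUP2 and PRE9 were the next highest of the alpha ring in the bypass strains, and in mot1-14 PRE9, at 0.21, was the highest. PRE9 encodes the one core subunit that yeast can live without. PUP2 was at 0.19 and 0.10, at 0.56 and 0.37, and at 0.84 and 0.75 on the array pairs of mot1-14, TBP-Y185C and TBP-F207L. PRE9 was at 0.26 and 0.15, at 0.48 and 0.52, and at 0.62 and 0.66. Both rose in all 3 mutants, although their rises in mot1-14 were lost with median centring. The mot1-14 rise passed in 10 of the 14 alternatives for PUP2 and in 12 for PRE9. PRE5 had fitted values of 0.02, 0.11 and 0.44 and rose in the bypass strains, where the TBP-Y185C call was lost under 5 of the 14 alternative settings. PRE8 rose by 0.14 in TBP-Y185C, which passed in 9 of the 14 alternatives, and by 0.14 in TBP-F207L. SCL1 fell by 0.15 in mot1-14, was at 0.04 in TBP-Y185C and rose by 0.18 in TBP-F207L, but its arrays in TBP-Y185C, at 0.17 and -0.09, disagreed in sign. Its fall in mot1-14 passed in 10 of the 14 alternatives. PRE10 was the one alpha gene with no positive fitted value: it fell by 0.18 in mot1-14 and by 0.09 in TBP-F207L (adjusted p = 0.0466, passing in 5 of the 14 alternatives and in none that left out an array) and was at -0.02 in TBP-Y185C.

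The beta ring carries the proteolytic sites. Of its 7 genes, 3 rose and 4 fell in mot1-14, 3 rose and 2 fell in TBP-Y185C, and 5 rose and 1 fell in TBP-F207L, with medians of -0.16, 0.03 and 0.34. PRE7 was at 0.40 and 0.52 on the mot1-14 arrays, 0.81 and 0.77 on the TBP-Y185C arrays and 0.74 and 0.81 on the TBP-F207L arrays. It was the highest subunit gene of mot1-14, at 1.38-fold (log2 0.46, SE 0.04, limma adjusted p = 3.83e-05). The bypass pairs overlapped, and their difference was -0.02 (95% interval -0.15 to 0.11).

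PRE4 and the ATPase gene RPT4 were the members that fell in all 3 mutants, although the RPT4 falls were lost without a dye term. PRE4 was at -0.30 and -0.36 on the mot1-14 arrays, -0.53 and -0.61 on the TBP-Y185C arrays and -0.24 and -0.24 on the TBP-F207L arrays. The fitted falls were 0.33 (adjusted p = 0.000108), 0.57 (adjusted p = 4.85e-06) and 0.24 (adjusted p = 0.000438) on the log2 scale in limma, and all passed in each of the 14 alternative settings, which was so for no other member that fell in TBP-F207L. PRE4 thus stood against PRE7 in the same ring, whose values were above 0 on all 6 arrays.

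The 3 genes of the active sites differed. PRE3, of the caspase-like site, rose in every mutant, with 0.17 and 0.23, 0.23 and 0.31, and 0.42 and 0.49 on the array pairs of mot1-14, TBP-Y185C and TBP-F207L. PUP1, of the trypsin-like site, fell by 0.16 in mot1-14, was at -0.02 in TBP-Y185C and rose by 0.25 in TBP-F207L. PRE2, of the chymotrypsin-like site, fell by 0.22 in mot1-14 and by 0.19 in TBP-Y185C, and was at 0.05 in TBP-F207L (adjusted p = 0.179). Only PRE3 of the 3 was above 0 on all 6 arrays. The remaining beta genes were PUP3, which rose by 0.10, 0.20 and 0.37, the first passing in 7 of the 14 alternatives, and PRE1, which fell by 0.21 in mot1-14, was at 0.03 in TBP-Y185C and rose by 0.34 in TBP-F207L.

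The ATPase ring of the base had the lowest median of the 5 groups of subunits in every mutant. Of the 6 RPT genes, none rose and 4 fell in mot1-14, 3 rose and 3 fell in TBP-Y185C, and 3 rose and 1 fell in TBP-F207L. The medians were -0.28, 0.00 and 0.09. RPT6 was the highest in TBP-Y185C, with 0.53 and 0.46 on its arrays, and was at 0.48 and 0.41 in TBP-F207L and at 0.07 and 0.04 in mot1-14. RPT2 rose by 0.20 in TBP-Y185C, which passed in 10 of the 14 alternatives, and by 0.55 in TBP-F207L. Its mot1-14 arrays, at -0.19 and 0.08, disagreed in sign.

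RPT1, RPT3, RPT4 and RPT5 all fell in mot1-14, by 0.27 to 0.32 on the log2 scale, and parted in the bypass strains. RPT1 rose by 0.12 in TBP-Y185C, which passed in 9 of the 14 alternatives, and was at -0.01 in TBP-F207L. Its TBP-Y185C arrays, at 0.25 and -0.01, disagreed in sign. RPT3 and RPT5 fell by 0.17 and 0.18 in TBP-Y185C, which passed in 12 and 11 of the 14 alternatives. In TBP-F207L RPT3 rose by 0.10, while RPT5 was at 0.07 (limma adjusted p = 0.0956). The RPT3 rise passed in 8 of the 14 alternatives, and not without either TBP-F207L array. RPT4 had the lowest signal over background of the members and the strongest dye effect, -0.17 on the log2 scale of red over green. Its arrays were at -0.48 and -0.09 for mot1-14, -0.24 and 0.02 for TBP-Y185C and -0.32 and 0.06 for TBP-F207L. It fell in all of them by the fitted values, but in TBP-Y185C the value of -0.11 turned to 0.01 with median centring.

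The base subunits without ATPase activity held the member with the sharpest contrast between the bypass strains. RPN10 encodes a ubiquitin receptor that also exists free of the proteasome. It was at -0.35 and -0.58 on the mot1-14 arrays, -0.86 and -0.81 on the TBP-Y185C arrays and 0.03 and 0.08 on the TBP-F207L arrays. The TBP-Y185C arrays were the lowest values of any member on any array, while the TBP-F207L arrays sat just above 0. RPN10 fell 1.78-fold in TBP-Y185C (log2 -0.83, SE 0.05, limma adjusted p = 7.51e-06) and 1.38-fold in mot1-14 (log2 -0.47, SE 0.05, adjusted p = 0.000199). In TBP-F207L it was at 0.06 (95% interval -0.07 to 0.19, adjusted p = 0.363).

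RPN1, RPN2 and RPN13 did not follow RPN10. RPN1, which encodes a scaffold that also binds ubiquitin and shuttle proteins, was at -0.53 and -0.29 on the mot1-14 arrays, -0.07 and 0.20 on the TBP-Y185C arrays and 0.17 and 0.55 on the TBP-F207L arrays. It fell in mot1-14 (log2 -0.41, adjusted p = 6.09e-05) and rose in TBP-F207L (log2 0.36, adjusted p = 9.47e-05), while array 1 and array 2 of TBP-Y185C disagreed in sign. RPN2, the other large scaffold, was at 0.25 and -0.15, at 0.54 and 0.27, and at 0.79 and 0.58, and rose only in the bypass strains by this test. RPN13, a ubiquitin receptor, rose in every mutant in this model, by 0.18, 0.22 and 0.47. Its mot1-14 arrays were at 0.04 and 0.31, and that rise passed in 11 of the 14 alternatives. Without a dye term its rises in mot1-14 and TBP-Y185C were lost. Of this group of 4, 1 rose and 2 fell in mot1-14, 2 rose and 1 fell in TBP-Y185C, and 3 rose and none fell in TBP-F207L.

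The lid genes had near-equal medians in the bypass strains. Of the 8 lid genes taken by name, 2 rose and 3 fell in mot1-14, and 6 rose and none fell in TBP-Y185C. In TBP-F207L 6 rose and 1 fell, and the medians were 0.06, 0.26 and 0.25 in the same order. SEM1 is not found by the name rule, so these counts leave it out, and it is listed below with the factors that accompany the proteasome. RPN8 and RPN11 led these 8 genes. Rpn11 is the deubiquitinase of the proteasome, and Rpn8 is the related subunit that pairs with it and has no catalytic activity. RPN8 was at 0.44 and 0.23 on the mot1-14 arrays, 1.06 and 0.90 on the TBP-Y185C arrays and 0.93 and 0.76 on the TBP-F207L arrays. RPN11 was at 0.36 and 0.20, at 0.84 and 0.61, and at 0.94 and 0.77. For both genes the mot1-14 arrays lay below all bypass arrays, and the bypass pairs overlapped.

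RPN8 rose 1.97-fold in TBP-Y185C (log2 0.98, SE 0.03, limma adjusted p = 4.25e-07), the highest subunit value of that strain, and 1.80-fold in TBP-F207L (log2 0.85, adjusted p = 8.18e-07). RPN11 rose 1.65-fold and 1.81-fold. RPN5, one of the scaffold subunits of the lid, rose by 0.59 and 0.67 in the bypass strains and was at 0.09 in mot1-14 (adjusted p = 0.0525). RPN7 rose by 0.29 and 0.29 and was at 0.06 in mot1-14. RPN12 rose by 0.22 and 0.15 and was at 0.07 in mot1-14, but its differences from mot1-14 did not pass (adjusted p = 0.0951 and 0.353 in limma), and its rise in TBP-F207L passed in 9 of the 14 alternatives. RPN3, RPN6 and RPN9 all fell in mot1-14, by 0.28, 0.19 and 0.33. RPN6 rose in both bypass strains, by 0.11, which passed in 9 of the 14 alternatives, and 0.21, RPN9 was at 0.01 and 0.03, and RPN3 was at 0.03 in TBP-Y185C and fell by 0.13 in TBP-F207L.

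The core and the regulatory particle were set side by side without a test, because genes of 1 complex are not replicates of a condition. In mot1-14 the core median was 0.03 and the regulatory median -0.13, in TBP-Y185C they were 0.13 and 0.16, and in TBP-F207L 0.35 and 0.25. The core median exceeded the regulatory median by 0.21 and 0.12 on the mot1-14 arrays and by 0.14 and 0.09 on the TBP-F207L arrays, and the difference was 0.02 and -0.09 on the TBP-Y185C arrays. The core median of mot1-14 changed sign with the setting, being -0.01 with the deposited log ratios or with median centring, and the ranges of core and regulatory genes overlapped in every mutant. In mot1-14, 6 of 14 core genes rose (42.9%) and 6 fell, while 3 of 18 regulatory genes rose (16.7%) and 9 fell. In TBP-Y185C 8 core genes rose (57.1%) and 2 fell, and 11 regulatory genes rose (61.1%) and 4 fell. In TBP-F207L 11 core genes rose (78.6%) and 2 fell, and 12 regulatory genes rose (66.7%) and 2 fell. The shares of all genes that rose in the 3 mutants were 37.2%, 41.0% and 40.2%, and the shares that fell were 34.9%, 38.8% and 38.8%.

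**Figure D2:**
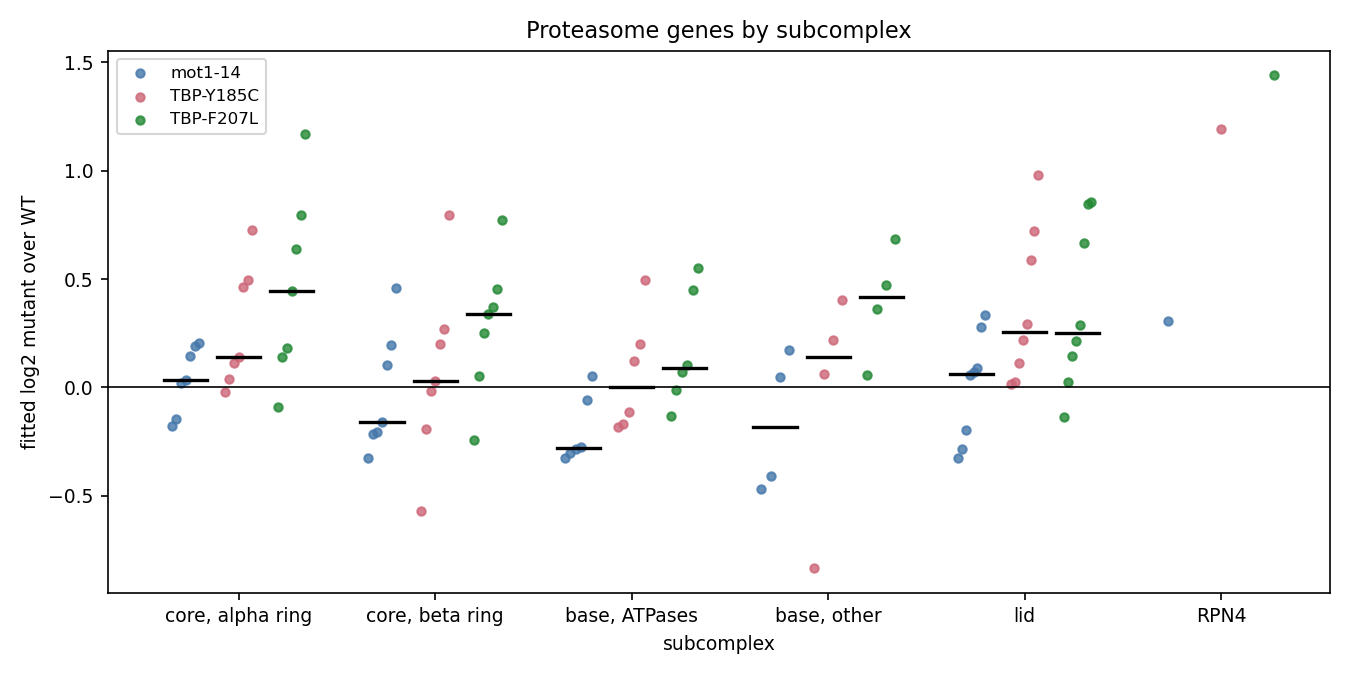
Fitted log2 ratio of mutant over WT for every subunit gene, grouped by subcomplex, and for RPN4, with 1 point per gene, 1 colour per mutant and a bar at each group's median. The base ATPases have the lowest median in each mutant, -0.28, 0.00 and 0.09, and single genes of each group spread over a wider range than the medians do.

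The direct comparison with mot1-14 asked which values the bypass strains altered relative to the mot1 mutant. In TBP-Y185C, 23 of 33 members (69.7%) were higher than in mot1-14 and 2 (6.06%) were lower, beside 25.7% and 23.4% of all genes. In TBP-F207L, 29 members (87.9%) were higher and none (0.00%) was lower, beside 28.8% and 29.0%. The median difference of the 32 subunit genes was 0.24 for TBP-Y185C and 0.37 for TBP-F207L. Both comparisons share the mot1-14 arrays, and each is given with its own values. All 33 differences of TBP-F207L from mot1-14 in the limma fit were positive, the lowest being 0.075 for RPN12, so none was lower without the adjustment either.

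The largest differences from mot1-14 among the subunits were PRE6 in TBP-F207L, at 0.98 (SE 0.05, limma adjusted p = 2.11e-05), and RPN1 in TBP-F207L, at 0.77 (SE 0.05, adjusted p = 7.32e-05). In TBP-Y185C they were RPN8, at 0.65 (SE 0.05, adjusted p = 0.000147), and PRE6, at 0.53 (adjusted p = 0.000282). The 2 genes lower in TBP-Y185C than in mot1-14 were RPN10, at -0.37 (adjusted p = 0.0080), and PRE4, at -0.24 (adjusted p = 0.0062), and neither call held without a dye term or with median centring. Without a dye term 10 members were higher in TBP-Y185C than in mot1-14, and without the first mot1-14 array or the first TBP-Y185C array 15 were. For TBP-F207L the number higher was 23 without a dye term.

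Among the genes that fell in mot1-14 and were higher than there in both bypass strains were RPT1, RPN3 and RPN9, with differences of 0.42 and 0.29, 0.31 and 0.15, and 0.34 and 0.35 for TBP-Y185C and TBP-F207L. RPN9 did not pass against WT in either bypass strain, at 0.01 (95% interval -0.07 to 0.10) and 0.03 (95% interval -0.06 to 0.11). RPN1, PRE1, PUP1 and SCL1 fell in mot1-14, did not pass in TBP-Y185C and rose in TBP-F207L. The mot1-14 fall passed in 12 of the 14 alternatives for PUP1 and in 10 for SCL1. PRE4 and RPN10 were the members that went further below WT in TBP-Y185C than in mot1-14.

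The bypass strains were then set against each other, and the median difference over the 32 subunit genes was 0.16. In TBP-F207L, 18 of 33 members (54.5%) were higher than in TBP-Y185C and 1 (3.03%) was lower, beside 15.4% and 21.8% of all genes. The core accounted for 10 of the higher members and the regulatory particle for 7, with RPN4 as the last. By subcomplex, 4 of 7 alpha genes, 6 of 7 beta genes, 3 of 6 RPT genes and all 4 other base genes were higher. Of the 8 lid genes taken by name, none was higher and RPN3 was lower. The differences of these lid genes ran from -0.16 to 0.13, with a median of 0.00.

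RPN10 gave the widest gap, at 0.89 (SE 0.08, limma adjusted p = 0.000849), that is 1.85-fold. It was the one member whose difference between the bypass strains passed in all 14 alternative settings. PRE6 followed with 0.44 (SE 0.05, adjusted p = 0.00131), which was lost only with median centring, then RPT2 with 0.35, PUP2 with 0.33, PRE5 with 0.33 and PRE4 with 0.33. Most of these calls depended on the model: 1 member was higher in TBP-F207L with median centring, 2 without a dye term, 9 without the first TBP-Y185C array and 7 without the second. The 1 lower member, RPN3, at -0.16 (adjusted p = 0.0327), passed in 3 of the 14 alternatives.

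**Figure D3:**
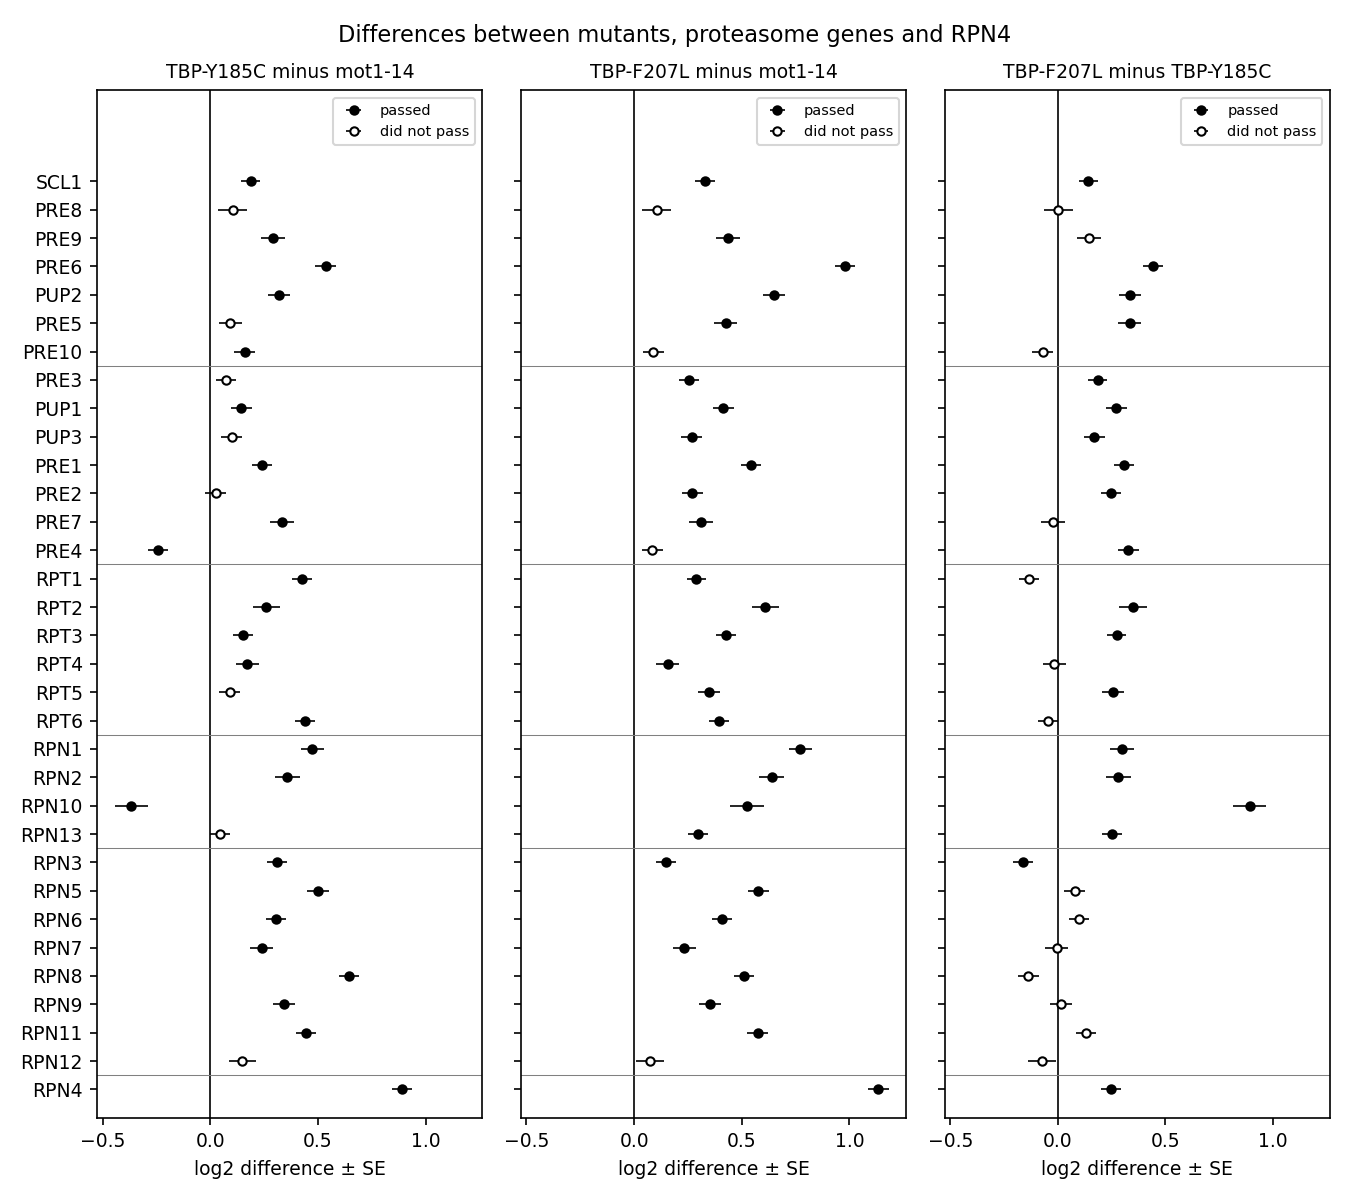
Difference in log2 ratio between mutants for each member, with bars of 1 SE and filled points for members that passed. In the TBP-F207L minus mot1-14 panel all 33 points lie above 0, and in the TBP-F207L minus TBP-Y185C panel the lid genes lie within -0.16 to 0.13 while RPN10 stands at 0.89.

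On the chromosome, 2 pairs of subunit genes lie with 1 gene between them, by gene order in the reference table (assembly R64). RET2, a subunit of the coat of Golgi vesicles, lies between PRE4 and RPN12. It fell in all 3 mutants, by 0.49, 0.65 and 0.98, while PRE4 fell by less in TBP-F207L than in TBP-Y185C and RPN12 rose in both bypass strains. GCD1, a subunit of the translation factor eIF2B, lies between RPT4 and RPN8. It fell by 0.31, 0.57 and 0.29, while RPN8 rose in every mutant. In both stretches, then, neighbouring genes had log2 ratios of opposite sign.

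Other genes of the pathway were drawn from lists chosen by function, but with earlier results of these data known. The shares of all genes are given beside the counts, which describe the lists and are no independent evidence. Of 15 factors that assemble or accompany the proteasome, 13 rose (86.7%) and 1 fell (6.67%) in each mutant, beside 37.2%, 41.0% and 40.2% of all genes that rose and 34.9%, 38.8% and 38.8% that fell. The 1 that fell was BLM10 in every case, at -0.34, -0.45 and -0.41, and ECM29, ADD66 and SEM1 each did not pass in 1 mutant; these 4 are named after their values were seen. The list had a median of 0.28 for mot1-14 and medians of 0.43 and 0.38 for TBP-Y185C and TBP-F207L. UMP1, the chaperone of core assembly, was at 0.47 and 0.10, at 0.63 and 0.30, and at 0.93 and 0.72 on the array pairs of mot1-14, TBP-Y185C and TBP-F207L. UBP6, a deubiquitinase bound to the proteasome, rose by 0.26, 0.43 and 0.61. These genes had their highest value in TBP-F207L. TMA17 and FUB1 had theirs in mot1-14: TMA17, a chaperone for the ATPase ring, rose by 1.25, 0.95 and 0.61, and FUB1, which binds the core, by 1.29, 0.94 and 0.53. RPN14, another chaperone of the ATPase ring that is not counted among the 15, fell by 0.24, 0.41 and 0.27.

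Of 15 genes of ubiquitin and of proteins that carry substrates to the proteasome, 5 rose (33.3%) and 7 fell (46.7%) in mot1-14, 6 rose and 7 fell in TBP-Y185C, and 7 rose and 6 fell in TBP-F207L. The shares of all genes were 37.2% and 34.9%, 41.0% and 38.8%, and 40.2% and 38.8%, so these counts are no result about the list. The polyubiquitin gene UBI4 rose by 1.70, 1.61 and 1.31, UBC5, a ubiquitin-conjugating enzyme, by 0.61, 1.43 and 0.99, and UFD1, which works with the Cdc48 unfoldase, by 0.44, 1.04 and 0.96. RSP5, a ubiquitin ligase, fell by 0.23, 0.44 and 0.74. UBI4 and UBC5 are also known as stress-induced genes in yeast.

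The genes that make or remove Rpn4 were followed in full. Rpn4 is marked for degradation by the ubiquitin ligase Ubr2 with its partner Mub1 and the conjugating enzyme Rad6. UBR2 fell by 0.22 in mot1-14 and 0.26 in TBP-Y185C and was at -0.07 in TBP-F207L. MUB1 fell by 0.28 and 0.12 in the same strains and was at -0.06 in TBP-F207L, but its TBP-Y185C arrays, at -0.28 and 0.04, disagreed in sign. RAD6 rose by 0.24, 0.53 and 0.44. Of the activators, YAP1 fell by 0.20 in mot1-14 and rose in the bypass strains, by 0.38 and 0.61, and HSF1 was at 0.06 in mot1-14 and rose by 0.32 and 0.44. PDR1 fell by 0.45, 0.32 and 0.21, and PDR3 by 0.17, 0.20 and 0.30. Activator transcripts thus differed in direction from each other, with YAP1 and HSF1 above WT in the bypass strains and PDR1 and PDR3 below WT in all 3 mutants.

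Known targets of these activators were counted next, from lists chosen in the same way. Of 18 chaperone genes driven by Hsf1, 14 rose (77.8%) and 2 fell (11.1%) in mot1-14, 16 rose (88.9%) and none fell (0.00%) in TBP-Y185C, and 16 rose and 2 fell in TBP-F207L, beside 37.2% and 34.9%, 41.0% and 38.8%, and 40.2% and 38.8% of all genes. The list had medians of 0.88, 1.40 and 1.15. HSP42, a small heat shock protein, rose by 2.66, 3.65 and 3.40, HSP104, the disaggregase, by 1.70, 2.34 and 2.18, HSP78, its mitochondrial relative, by 1.31, 2.29 and 2.04, and BTN2, which sequesters misfolded proteins, by 1.36, 2.64 and 2.05. The chaperone medians were higher than the subunit medians in every mutant, and the part of a heat shock response in the RPN4 and subunit values was not tested. Targets of Pdr1 and Pdr3 rose in 4, 3 and 3 of 7 cases (57.1%, 42.9% and 42.9%) and fell in 1, 2 and 3, with the transporter genes PDR5 at 0.22, -0.48 and -0.74, YOR1 at 0.82, 0.72 and 0.77, and PDR10 at -0.05, 0.35 and 0.18, and RSB1, which moves sphingoid bases, at 0.00, -0.43 and -0.41. Targets of Yap1 rose in 4, 5 and 3 of 10 cases and fell in 5, 5 and 6. Both lists stand beside 37.2%, 41.0% and 40.2% of all genes that rose and 34.9%, 38.8% and 38.8% that fell, and neither count is read as a result about its list. Among the Yap1 targets the thioredoxin reductase gene TRR1 was at -0.60, -0.85 and -1.03, the transporter genes FLR1 at -0.61, -0.31 and -0.96 and ATR1 at -0.99, -1.10 and -1.02, and the peroxiredoxin gene TSA1 at 0.66, 1.04 and 0.84.

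**Figure D4:**
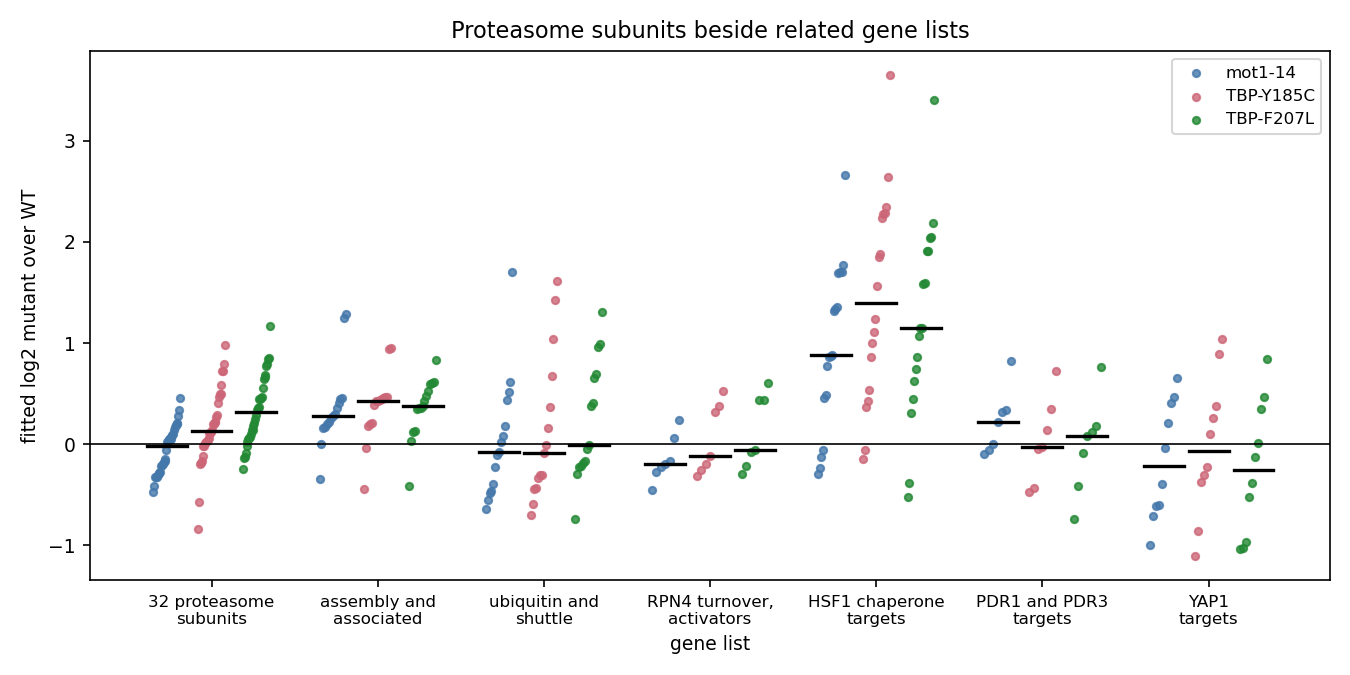
Fitted log2 ratio of mutant over WT of the 32 subunit genes and of genes in the related lists, with 1 point per gene, 1 colour per mutant and bars at the medians. Hsf1 chaperone targets have medians of 0.88, 1.40 and 1.15 and assembly factors of 0.28, 0.43 and 0.38, while ubiquitin and shuttle genes, genes of Rpn4 turnover and activation, and targets of Pdr1, Pdr3 and Yap1 lie on both sides of 0.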

How the data were processed

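RNA of each mutant and of WT was compared on two-colour Agilent yeast arrays. Per the file headers, the deposited scanner files come from Agilent Feature Extraction 7.5.1 and hold an uncorrected mean and background intensity for each spot. Beside these stands a deposited log ratio of processed signals, log10 of red over green, again per the file headers. Checked on the values, the authors' series table proved to be on a log2 scale in the same direction: its columns followed the scanner log ratios at r = 0.999 or above. It is thus red over green rather than mutant over WT, and its column medians were -0.0258, 0.0188, -0.0227, 0.0247, -0.0034 and 0.0203, so that it is not centred.

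Mean intensity was corrected with normexp (offset 50) and normalized by loess within each array (limma 3.58.1, R 4.3.3). Control spots (544) were given no weight in loess and then dropped, as were spots marked as outliers (at most 3.22% of an array, 1 of them a member's, in RPT3). Spots of 1 probe were averaged, with 2 spots per array for 23 members and 1 for 10. Of 6256 probes, 6234 were tested, those well above background in 1 or both channels on 2 or more arrays. One limma model of all 6 arrays held a dye term per probe and 3 coefficients signed by dye orientation, with 2 residual degrees of freedom and 4.81 from the prior. Adjusted p-values are from this model (Benjamini-Hochberg, 0.05), and intervals are 95% from its 6.81 degrees of freedom. With 2 arrays per mutant, their number limits the precision. The scripts were tested on simulated data.

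Members and gene lists were chosen with earlier results of these data known. All members are named. All 7 genes of Rpn4 turnover and activation are named, and up to 4 of each other list, those with the largest passing change and the same sign on both arrays. MOT1 and SPT15 check the strains, and the neighbours RET2 and GCD1 were chosen after their values were seen. Symbols came from the reference table of assembly R64, which matched 5756 systematic names. Alternatives were the deposited log ratios, the series table, median centring, no background subtraction, other filters, saturated spots left out, no dye term and leaving out each array. Promoter motifs, planned at first, were not analysed here.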

Additional observations from a re-analysis of the deposited data

Results flagged for a closer look

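The values below are differences in log2 ratio between mutants whose own limma test passed. They are listed because an effect against WT differed between mutants, and no explanation is weighed. Each mutant lay on its own slide, so slide and mutant cannot be told apart in any of them.

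In the alpha ring, SCL1 exceeded its mot1-14 value by 0.19 in TBP-Y185C and by 0.33 in TBP-F207L, and was higher in TBP-F207L than in TBP-Y185C by 0.14. The first of these passed in 7 of 14 alternative settings and the last in 3. PRE9 was higher than in mot1-14 by 0.29 and 0.44. PRE6 was higher than in mot1-14 by 0.53 and 0.98, with 0.44 between the bypass strains. PUP2 was higher by 0.32 and 0.65, with 0.33 between them. PRE5 differed from mot1-14 by 0.43 and from TBP-Y185C by 0.33 in TBP-F207L, and PRE10 from mot1-14 by 0.16 in TBP-Y185C. The PRE10 difference passed in 6 of 14 alternative settings.

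In the beta ring, PUP1 was higher than in mot1-14 by 0.14 for TBP-Y185C and 0.41 for TBP-F207L, with 0.27 between the bypass strains, and PRE1 by 0.24 and 0.54, with 0.31 between them. The first of the PUP1 differences passed in 6 of 14 alternative settings. PRE7 was higher than in mot1-14 by 0.33 and 0.31. PRE3, PUP3 and PRE2 differed only for TBP-F207L in this test: they were higher than in mot1-14 by 0.26, 0.27 and 0.27 and than in TBP-Y185C by 0.18, 0.17 and 0.25. Between the bypass strains, the PRE3 difference passed in 7 of 14 alternative settings and the PUP3 difference in 4. PRE4 was lower in TBP-Y185C than in mot1-14, at -0.24, and higher in TBP-F207L than in TBP-Y185C by 0.33.

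Among the base ATPases, RPT1 was higher than in mot1-14 by 0.42 for TBP-Y185C and 0.29 for TBP-F207L, RPT4 by 0.17 and 0.16, and RPT6 by 0.44 and 0.39. RPT2 was higher by 0.26 and 0.61, with 0.35 between the bypass strains, and RPT3 by 0.15 and 0.43, with 0.27 between them. RPT5 was higher in TBP-F207L than in mot1-14 by 0.35 and than in TBP-Y185C by 0.26. For TBP-Y185C against mot1-14, the RPT3 difference passed in 7 of 14 alternative settings and the RPT4 difference in 8.

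Among the other base genes, RPN1 was higher than in mot1-14 by 0.47 for TBP-Y185C and 0.77 for TBP-F207L, with 0.30 between the bypass strains, and RPN2 by 0.36 and 0.64, with 0.28 between them. RPN10 was at -0.37 in TBP-Y185C against mot1-14, at 0.52 in TBP-F207L against mot1-14 and at 0.89 between the bypass strains. RPN13 was higher in TBP-F207L than in mot1-14 by 0.30 and than in TBP-Y185C by 0.25.

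Of the lid genes taken by name, 7 of 8 were higher than in mot1-14 in both bypass strains, beside shares of 25.7% and 28.8% of all genes. The differences in TBP-Y185C and TBP-F207L were 0.31 and 0.15 for RPN3, 0.50 and 0.58 for RPN5, 0.31 and 0.41 for RPN6, 0.24 and 0.23 for RPN7, 0.65 and 0.51 for RPN8, 0.34 and 0.35 for RPN9, and 0.44 and 0.57 for RPN11. The RPN3 difference for TBP-F207L passed in 8 of 14 alternative settings. RPN3 was lower in TBP-F207L than in TBP-Y185C, at -0.16, which passed in 3 of 14. For RPN4 the differences were 0.89 and 1.14 from mot1-14 and 0.25 between the bypass strains.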

How the results depend on the processing

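No alternative moved the median of all genes by over 0.1. With the deposited log ratios, the series table, no background subtraction or either other filter, and with saturated spots left out, no call of a member changed sign. Median centring turned 1 call, RPT4 in TBP-Y185C, to 0.0063, and ended 16 of the calls against WT and 22 between mutants. Dropping the dye term ended 24 and 38. For RPN4 the fitted values against WT stayed at 0.30, 1.19 and 1.44, while their SE went from 0.033 to 0.0514. The cause of the lost calls was not tested.

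With median centring, 4 members rose in mot1-14, 2 fell in TBP-Y185C, 1 fell in TBP-F207L, none (0) was lower in TBP-Y185C than in mot1-14, and 1 was higher and 0 lower in TBP-F207L than in TBP-Y185C. Without a dye term 13 rose and 3 fell in TBP-Y185C, 2 fell in TBP-F207L, 10 were higher and 0 lower in TBP-Y185C than in mot1-14, and 2 were higher and 0 lower in TBP-F207L than in TBP-Y185C. The last number was 0 also with the deposited log ratios, the series table and no background subtraction. The shares of all genes were not counted under the alternative settings, so none of these counts has a background beside it.

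The difference in RPN4 between TBP-F207L and TBP-Y185C was 0.19 with median centring and 0.25 without a dye term, neither of which passed. The core median of mot1-14 was -0.0077 with the deposited log ratios and with the series table and -0.0113 with median centring. The regulatory median of mot1-14 was -0.1775 and -0.1774 with the first 2 of these. In TBP-Y185C the core median was 0.0661, 0.066 and 0.1969 and the regulatory median 0.0994, 0.0993 and 0.2515 under these 3 settings. In TBP-F207L the core exceeded the regulatory particle by 0.0652 with median centring.

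Leaving out each array in turn, 7 to 11 members rose in mot1-14, and 2 to 3 fell in TBP-F207L. Between TBP-Y185C and mot1-14, 15 to 24 were higher and 1 to 2 lower. Between TBP-F207L and TBP-Y185C, 7 to 16 were higher and 0 lower, and the RPN4 difference ranged from 0.2286 to 0.2659, passing without any 1 array of the other mutants but not without either TBP-Y185C array. The core median of mot1-14 ranged from -0.0032 to 0.0320. No single member's call reversed, and summed over the 6 such fits 33 calls against WT and 72 between mutants were lost. Slide as a block could not be fitted, since each slide held 1 mutant, and the promoter motif search was not run. No paired analysis was possible because the array number stands for the dye orientation only.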
